A study of Mus musculus with 9 samples.

Results

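Mt1 and Mt2, which encode metallothioneins, and Slc30a1, which encodes a zinc exporter, are 3 of the 217 genes that the deposited tables list, and they were chosen by name after being selected on their measured rise in these same libraries. RNA was measured in 9 libraries of Hepa1-6, a mouse hepatocarcinoma cell line labelled wild type, in 3 groups of 3. The control libraries carry no treatment in the sample labels and PBS in the series text, the next group was given P-Por-Os at a dose of 25.57 µg/mL, and another had this dose plus ultrasound. That last group, labelled P-Por-Os+US, is called the ultrasound group below. The design asks what the material changes by itself and what it changes when ultrasound is added. Ultrasound without P-Por-Os was not analysed here, so an effect of ultrasound by itself cannot be told apart from one of the combination. In bulk RNA such as this, a change in the number of cells of a kind and a change in RNA per cell cannot be told apart either. The sources used here do not give the time of treatment, the ultrasound settings or whether replicates were grown separately, so the spread between libraries may be technical.

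The tables hold only genes listed as higher, with a log2 fold no lower than 1.00 and the unadjusted p under 0.05 in every row, so nothing is said here of genes that fell or were left out. The file headers do not name the unit of the values. It was taken to be RPKM from the values themselves, which give whole reads when multiplied by exonic length, that is, reads scaled to the length of a gene's annotated exons and to the library total. The totals behind them lay between 34740800 and 37667600 reads. All 3 genes have a value in each of the 9 libraries, which holds for 28 of the 217 genes. None of 8 hepatocyte and hepatoma markers, and none of 4 leukocyte, 3 fibroblast and 3 endothelial markers, is among the listed genes, so the identity of the cells was not checked against markers.

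Metallothioneins are small cysteine-rich proteins that bind zinc and copper, buffer free zinc and trap toxic metals such as cadmium. The transporter encoded by Slc30a1, also called ZnT1, moves zinc out of the cell across the plasma membrane. In mouse cells all 3 genes are known targets of MTF1, a zinc-sensing transcription factor that binds metal response elements in their promoters, and metallothionein genes of the liver also respond to oxidative stress, glucocorticoids and acute phase signals.

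Mt2 and Mt1 are neighbours on chromosome 8 of GRCm38, both on the plus strand, with Mt2 from 94172664 to 94173568, Mt1 from 94179082 to 94180327 and 5513 bases between them. Slc30a1 lies on the plus strand of chromosome 1 from 191906767 to 191913247. The promoter stretches are shown because the 3 genes were higher in the same libraries and the metal response element is the best known sequence they share. They come from RefSeq (GRCm38.p6, plus strand, 5′ to 3′), where all 3 genes were matched by symbol, and capitals mark the core of that element, TGCACNC or TGCGCNC on either strand.

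Mt2, chr8:94172368-94172617, directly before the RefSeq start: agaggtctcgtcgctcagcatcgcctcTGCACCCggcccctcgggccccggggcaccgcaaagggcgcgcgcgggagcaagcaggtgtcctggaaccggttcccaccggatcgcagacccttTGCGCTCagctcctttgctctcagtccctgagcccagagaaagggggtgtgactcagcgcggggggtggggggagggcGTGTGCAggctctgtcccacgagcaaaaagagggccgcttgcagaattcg
Mt1, chr8:94178932-94179081, before the annotated transcripts: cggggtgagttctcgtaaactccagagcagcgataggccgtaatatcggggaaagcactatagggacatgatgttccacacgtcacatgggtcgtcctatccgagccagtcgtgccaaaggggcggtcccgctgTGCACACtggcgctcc
Mt1, chr8:94179089-94179118, the first 30 bases after the RefSeq start: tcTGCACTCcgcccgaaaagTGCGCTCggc
Slc30a1, chr1:191906617-191906766, before the annotated transcripts: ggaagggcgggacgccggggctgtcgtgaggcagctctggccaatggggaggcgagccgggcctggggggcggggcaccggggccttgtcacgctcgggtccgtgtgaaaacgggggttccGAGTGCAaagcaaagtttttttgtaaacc

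In the windows of 300 bases around the RefSeq starts, from 250 bases before to 50 after, Mt2 held 4 matches, Mt1 held 3 and Slc30a1 held 2. Of 32817 such windows in the mouse genome, 25.7% held at least 1 match, 7.12% at least 2 and 1.97% at least 3. The core of the antioxidant response element, TGACNNNGC on either strand, was found in 12.4% of all windows, 1 time each in those of Mt2 and Slc30a1 and 0 times in that of Mt1. The match in Mt2, on chromosome 8 from 94172539 to 94172547, reads TGACTCAGC and overlaps no capital letters above. A match describes the letters in a window and was not tested as a binding site. The counts depend on the RefSeq start, and bases outside these windows were not searched. The 0 for Mt1 therefore does not show that its promoter lacks an antioxidant response element.

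Mt2, the metallothionein with the largest folds, was lowest in the control libraries, at 6.68, 7.80 and 10.7 RPKM in replicates 1 to 3. After P-Por-Os it was at 32.1, 28.6 and 28.3 RPKM, and in the ultrasound group at 141, 147 and 135 RPKM. The groups did not overlap. Selection for a rise favours such a separation, and how many other listed genes show it was not counted. The lowest library with ultrasound stood 4.20-fold above the highest with P-Por-Os alone, and the lowest with P-Por-Os alone stood 2.63-fold above the highest control. Mean levels were 8.41 ± 2.10 RPKM, 29.7 ± 2.15 RPKM and 141 ± 5.78 RPKM in that order (SD over 3 libraries each). On the log2 scale of mean RPKM, Mt2 stood 1.82 ± 0.21 above control after P-Por-Os and a further 2.25 ± 0.07 higher in the ultrasound group (SE). For these and all later steps and their differences, the SE came from the spread of log2 RPKM between libraries, not from mean RPKM.

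Mt1, the neighbouring metallothionein, followed the same order at lower RPKM. It was at 3.58, 4.13 and 5.25 RPKM in control, 9.69, 8.90 and 10.5 RPKM after P-Por-Os, and 19.2, 19.2 and 22.1 RPKM after P-Por-Os+US. Again no library of a group reached into the next one, with a gap of 1.69-fold between control and P-Por-Os and of 1.83-fold between P-Por-Os and the ultrasound group. The mean went from 4.32 ± 0.852 to 9.69 ± 0.792 and then to 20.2 ± 1.68 RPKM (SD over 3 libraries each). The log2 steps were 1.17 ± 0.18 and 1.06 ± 0.10 (SE).

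Slc30a1, the exporter, was the lowest of the 3 genes in every library, at 0.380, 0.422 and 0.358 RPKM in control. After P-Por-Os it was at 1.25, 1.15 and 1.10 RPKM, and after P-Por-Os+US at 1.50, 1.41 and 1.38 RPKM. Both treated groups stood clear of control, while the lowest library with ultrasound exceeded the highest without it by a factor of 1.10. The means were 0.386 ± 0.0324, 1.17 ± 0.0758 and 1.43 ± 0.0631 RPKM (SD over 3 libraries each). The log2 step from control to P-Por-Os was 1.59 ± 0.09 and that from there to the ultrasound group 0.29 ± 0.06 (SE).

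**Figure D1:**
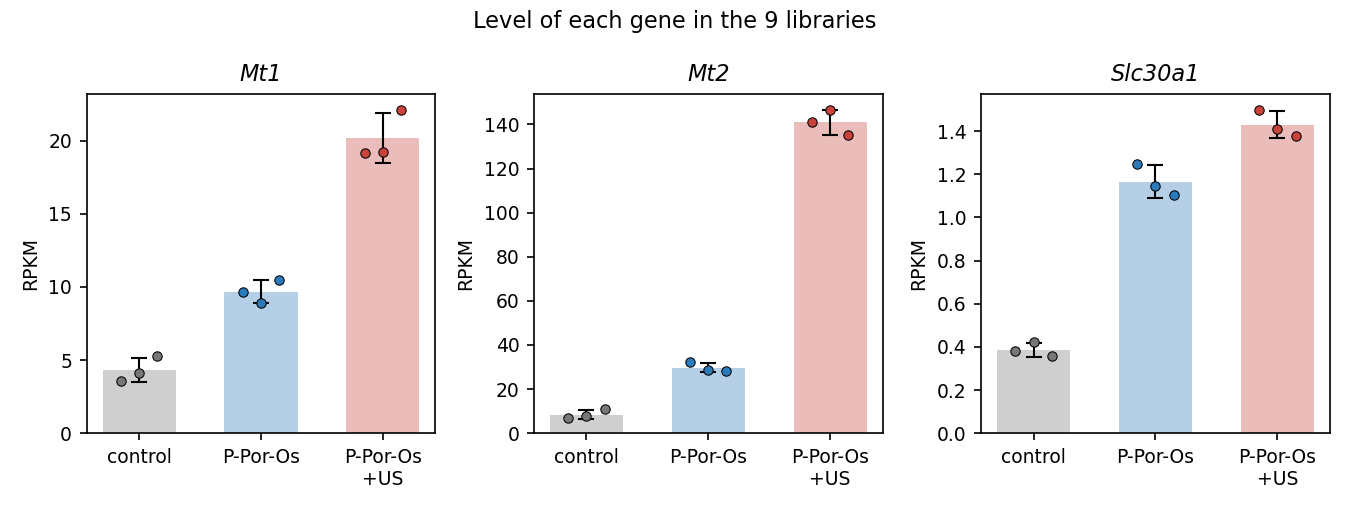
RPKM of Mt1, Mt2 and Slc30a1 (y axes, separate linear scales from 0) in control, P-Por-Os and P-Por-Os+US; points are libraries in replicate order, bars are group means and whiskers are SD over 3 libraries. Mt2 goes from 8.41 to 29.7 to 141 RPKM and Slc30a1 from 0.386 to 1.17 to 1.43 RPKM. Groups do not overlap for these 3 genes, which selection for a rise favours.

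Slc30a1 differed from Mt1 and Mt2 in where the rise in its level lay. The second step minus the first was 0.43 ± 0.24 for Mt2, -0.11 ± 0.22 for Mt1 and -1.30 ± 0.13 for Slc30a1 on the log2 scale (SE). The first step made up 84.4% of the whole log2 rise of Slc30a1, 52.4% of that of Mt1 and 44.7% of that of Mt2. In RPKM, Mt2 was 21.3 higher after P-Por-Os than in control and 111 higher again with ultrasound, while for Slc30a1 the differences were 0.780 and 0.263. Both steps share the P-Por-Os libraries, and they come from values that selected the genes, so these are descriptions without a test. Mt1 and Mt2 are listed for both steps and Slc30a1 only for the first, so its contrast with them largely repeats the listing. Whether Mt1 and Mt2 differ from each other in this was not tested. The sign for Mt1 is not settled: with the authors' scaling its second step exceeded the first by 0.09, and by 0.01 both without P-Por-Os replicate 3 and without control replicate 1. Without control replicate 3 it was -0.27, and without P-Por-Os replicate 2 it was -0.22. For Mt2 the difference was 0.21 without control replicate 3 and 0.62 with the authors' scaling.

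**Figure D2:**
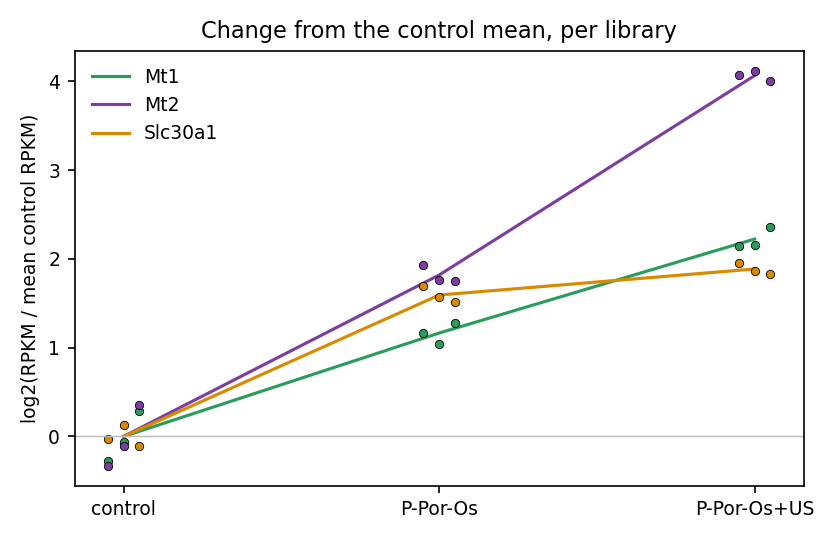
Log2 of RPKM over the mean control RPKM of the same gene (y axis) in control, P-Por-Os and P-Por-Os+US (x axis); points are libraries and lines join the log2 of the group means. Mt2 climbs by 1.82 and then 2.25, Mt1 by 1.17 and then 1.06, and Slc30a1 by 1.59 and then 0.29.

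The contrast of Slc30a1 between the ultrasound group and the P-Por-Os group is the only one here that did not choose the gene, since that table does not list it, though its libraries also enter the contrasts that did. On log2(RPKM + 1), a scale that understates changes of low genes, the difference was 0.17 ± 0.07 (SE), with all 3 libraries of the ultrasound group above the 3 of the other and a limma adjusted p of 0.0485 over the 28 genes with values in all libraries. Of those 28 genes, 53.6% passed the same threshold, so a pass is not particular to Slc30a1. The adjusted p is also too small because all 28 were selected for rising in some contrast. The call was lost with a pseudocount of 0.1 (limma adjusted p = 0.129) and in 7 of 9 fits that left out a library, all but those without control replicate 3 or replicate 3 of the ultrasound group, with limma adjusted p up to 0.190. An exact two-sided permutation test over the 6 libraries gave p = 0.1, the smallest it can give with 3 against 3.

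Of the 3 genes, the listed value nearest to the minimum log2 fold of 1 was that of Mt1, and the value that missed listing was that of Slc30a1. In the authors' deposited table, Mt1 entered the list of P-Por-Os against control with a log2 fold of 1.05. Slc30a1 stayed outside that of the ultrasound group against P-Por-Os, at 0.29 from mean RPKM or 0.37 after adding the median offset of the authors' folds.

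In the tables, all 3 genes were called higher after P-Por-Os+US against control, where 0.403% of 15142 genes tested were, and all 3 after P-Por-Os against control, where 1.05% of 15270 were. For the ultrasound group against P-Por-Os, 2 of the 3 were called against 0.179% of 15074. The numbers of genes tested were worked out from the deposited p-values and adjusted p-values. Since listing was how the genes were selected, nothing follows from these counts. In the authors' deposited table of P-Por-Os+US against control, Mt2 had the highest log2 fold of the 61 listed genes, 4.02, with Mt1 in place 4 at 2.17 and Slc30a1 in place 6 at 1.82, where the median was 1.16. By p, the same deposited table of the authors puts Mt1 at rank 4 of all genes tested, Mt2 at rank 18 and Slc30a1 at rank 135.

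After P-Por-Os alone the 3 genes stood less far from the other listed genes. In the authors' deposited table Mt2 had a log2 fold of 1.71, Slc30a1 of 1.46 and Mt1 of 1.05, which are places 25, 42 and 139 of 160 around a median of 1.24. Mt1 and Slc30a1 had ranks 555 and 572 by p in that deposited table of the authors. With ultrasound against P-Por-Os, the authors' deposited table gives Mt2 the highest log2 fold of 27 genes, 2.33, and rank 2 by p, while Mt1 was in place 15 at 1.13. Adjusted p-values in the authors' deposited tables ranged from 1.33e-10 for Mt2 in this contrast to 3.41e-06 for Slc30a1 in P-Por-Os+US against control.

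**Figure D3:**
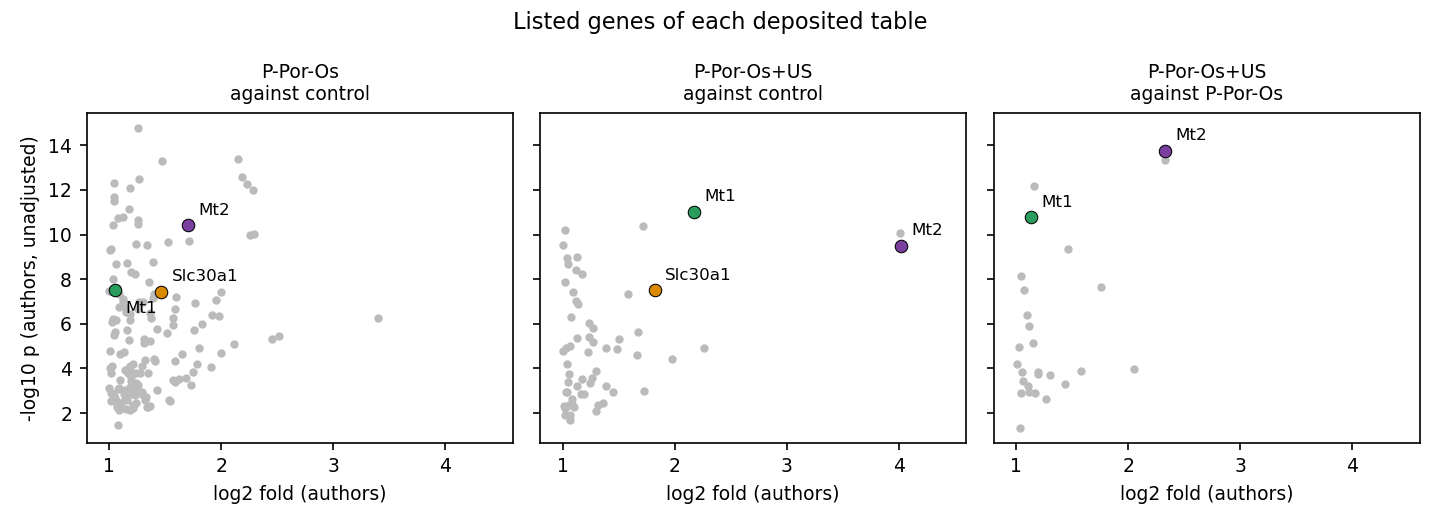
Log2 fold (x axis) and -log10 of the unadjusted p (y axis) of every listed gene in the authors' deposited tables, 1 panel per comparison; coloured points are Mt1, Mt2 and Slc30a1. Mt2 lies at 1.71, 4.02 and 2.33 from left to right, and Slc30a1 is not listed in the last panel.

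Mt2 was higher relative to Mt1 in each treated group than in control. The Mt2 to Mt1 ratio of RPKM was 1.87, 1.89 and 2.05 in the control libraries, 3.32, 3.22 and 2.70 after P-Por-Os, and 7.36, 7.62 and 6.10 after P-Por-Os+US. No group overlapped another, and P-Por-Os replicate 3 and P-Por-Os+US replicate 3 were the lowest of their groups. Group means were 1.93 ± 0.0968, 3.08 ± 0.333 and 7.02 ± 0.810 (SD over 3 libraries each). This ratio was made from the values that selected the genes and was not tested. An antisense model overlaps Mt2 and none was found for Mt1, so antisense reads may enter the Mt2 side only, and their share is not known.

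The size of that ratio depends on which exons set the length, though its order across groups does not. The annotated exons of Mt1 span 1246 bases because a single-exon transcript of 1085 bases covers the introns, whereas its spliced main transcript has 549 bases, so the length behind its RPKM is 2.27-fold that of the main transcript. For Mt2 the figures are 588 and 511 bases, a factor of 1.15, and for Slc30a1 both are 5244 bases. Per kb of the main transcripts, the Mt2 to Mt1 ratio was 0.981 ± 0.0491 in control, 1.56 ± 0.169 after P-Por-Os and 3.56 ± 0.411 after P-Por-Os+US (SD over 3 libraries each). On that scale the control libraries lay between 0.946 and 1.04, near equal levels, while RPKM puts Mt2 above Mt1 in all 9 libraries. Which transcripts the reads came from was not tested.

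**Figure D4:**
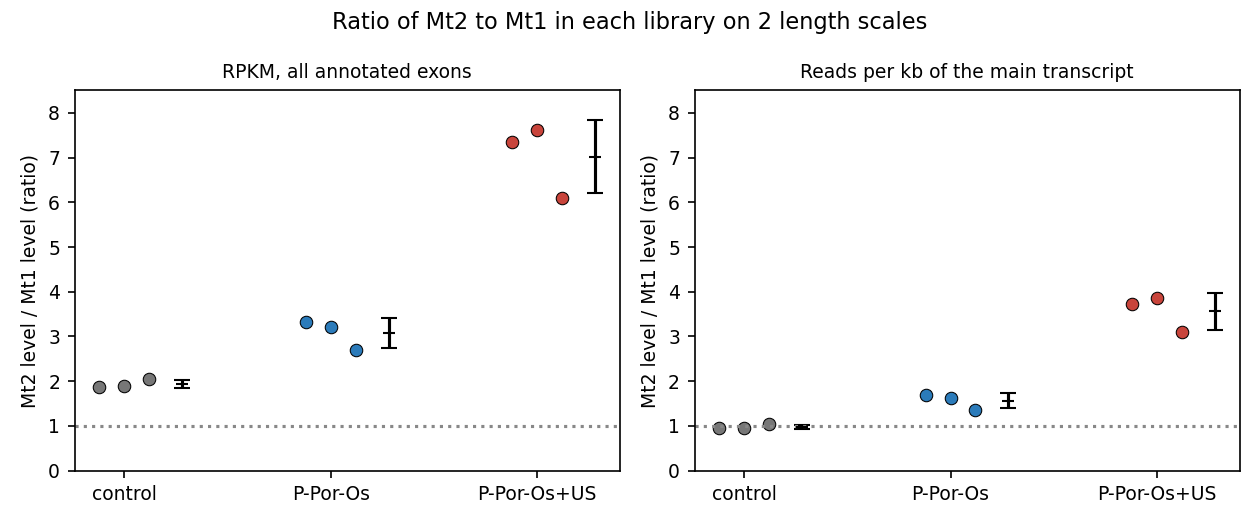
Ratio of Mt2 to Mt1 (y axes) in each library by group, from RPKM on the left and per kb of the main transcripts on the right; points are libraries, whiskers beside them show mean and SD over 3 libraries, and the dotted line marks equal levels. Control sits at 1.93 on the left and 0.981 on the right, and P-Por-Os+US at 7.02 and 3.56.

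The reads behind the levels differed widely between the genes. RPKM times exonic length gave whole numbers of reads for all 3 genes in every library, within 0.0174 of a read. Slc30a1 rested on 66 to 80 reads per control library, 208 to 240 after P-Por-Os and 251 to 275 after P-Por-Os+US. Mt1 rested on 168 to 230, 398 to 470 and 836 to 958 reads, and Mt2 on 148 to 222, 598 to 692 and 2758 to 3062 reads. All 18 read numbers of Mt1 and Mt2 were even, against 5 of 9 for Slc30a1. Over all listed genes with more than 10 and fewer than 400 reads the even share ran from 45.1 to 63.3% per library. Whether the mates of a pair were counted separately was not tested.

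The metallothioneins varied among control libraries by more than counting. Their coefficient of variation in control was 24.9% for Mt2 and 19.7% for Mt1, where counting reads alone gives 7.48 and 7.17% and counting pairs 10.6 and 10.1%. Control replicate 1 was the lowest and control replicate 3 the highest for both. For Slc30a1 the coefficient in control was 8.38%, below the 11.7% from counting reads, and its highest control library was replicate 2. The counting values cover counting error only.

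Antisense gene models overlap 2 of the 3 genes, and the sources used here do not give the strand setting of the read counting, so reads of a gene and its antisense partner cannot be told apart. In GENCODE M21, Gm45774, an antisense model on the minus strand of chromosome 8 from 94170748 to 94173412, covers 432 of the 588 exonic bases of Mt2. The deposited tables list a model named RP23-98C9.5 at 0.221 times the RPKM of Mt2 in the mean of 9 libraries, between 0.219 and 0.226 in each. Gm45774 has 2665 exonic bases, and the length of Mt2 over that length is 0.221. At 2665 bases RP23-98C9.5 came out at whole reads in all 9 libraries, such as 148 against 148 for Mt2 in control replicate 1 and 2758 against 2758 in P-Por-Os+US replicate 3. Its read number over that of Mt2 ran from 0.993 to 1.02. Whether RP23-98C9.5 is the same model was not tested, as the annotation used here does not hold its name.

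For Slc30a1 the overlap is smaller. The antisense model 1700034H15Rik, on the minus strand of chromosome 1 from 191886130 to 191907527, shares 468 bases with it, which are 8.92% of the exons of Slc30a1 and 7.67% of its own 6099 exonic bases. It stood at 0.131 ± 0.0410 RPKM in control, 0.381 ± 0.0195 after P-Por-Os and 0.435 ± 0.0320 after P-Por-Os+US (SD over 3 libraries each). It rested on 21 to 39, 79 to 89 and 86 to 99 reads per library in that order. No overlapping model was found for Mt1. Little sequence is shared with other genes: 0 of the 31-base words of Mt1 and Slc30a1, and 3 of 573 of Mt2, occur in transcripts of other genes on the same strand, and Mt1 and Mt2 share none.

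Likeness to other genes was measured by Pearson correlation of log2(RPKM + 0.1) over the 9 libraries, among the 28 genes with values in all of them. All 28 were selected for being higher after treatment and share the same libraries, so high values are built in and describe only the order. Mt1 and Mt2 correlated at 0.990 with each other, and at 0.919 and 0.900 with Slc30a1. After RP23-98C9.5, the closest to Mt2 were Nipal1, known as a magnesium transporter, at 0.947 and the gene model Gm34176 at 0.938, where the median over 25 other genes was 0.772. The closest to Mt1 after RP23-98C9.5 were Nipal1 at 0.957 and Fosb, an immediate early transcription factor, at 0.951, with a median of 0.829.

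Slc30a1 was most like 1700034H15Rik at 0.982, Gm5914 at 0.981 and Fosb at 0.966, with a median of 0.898 over 25 genes. Gm5914 was at 2.19 ± 0.473, 5.31 ± 0.544 and 6.45 ± 0.483 RPKM in control, P-Por-Os and P-Por-Os+US (SD over 3 libraries each). Nipal1, close to the metallothioneins, was at 0.0820 ± 0.0255, 0.174 ± 0.0326 and 0.412 ± 0.144 RPKM (SD over 3 libraries each). Mt1 and Mt2 ranked 10 and 14 among the 27 other genes in likeness to Slc30a1, at values near its median over the other genes.

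Other genes of metal handling were not listed. Of 36 genes of zinc and copper handling, which include Mt3, Mt4, Mtf1, the SLC30 exporters, the SLC39 importers and the copper transporters, 3 were listed in each comparison with control and 2 in the ultrasound group against P-Por-Os, all of them the genes described here. Of 10 oxidative stress targets such as Hmox1 and Nqo1, 5 heat shock genes, 6 glucocorticoid targets and 7 acute phase genes, 0 were listed in each of the 3 comparisons. The tables list 0.403% of all genes tested with control as the reference for the ultrasound group, 1.05% with control as the reference for P-Por-Os, and 0.179% with P-Por-Os as the reference, and at such shares lists of 5 to 10 genes would mostly have 0 listed. The 3 listed genes are the ones chosen for being listed, so nothing is read from their count. A gene absent from a table may have fallen, changed by less than the listing minimum or gone unmeasured, so these counts do not show that such genes were unaffected.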

How the data were processed

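Stranded libraries from total RNA of Hepa1-6 cells were sequenced as paired ends, per the labels' protocols, which name both an mRNA kit and an rRNA depletion kit without saying which libraries used which. The submitters' processing notes name edgeR 3.12.1, Subread 1.5.1 with featureCounts, fastp 0.23.4 and the build GRCm38. The aligner, annotation and strand setting were not given in the sources used here. For selected genes, the authors deposited a log2 fold, log2 CPM, F score, p-value and adjusted p-value, per the file headers. The authors' deposited values per library have no unit in the headers, and were taken to be RPKM, reads scaled by the authors to gene length and library total, because they give whole reads when multiplied by exonic length and match the log2 CPM.

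Columns were matched to samples by their group and replicate number. The 3 genes, the lists and the tests were chosen with earlier results of these data known. Genes outside these 3 were named if among the 3 most correlated with a member, in a metal or stress list and in a table, or overlapping a member.

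Exonic lengths came from GENCODE M21, where 208 of 217 symbols occurred once. The depth was the library total at which RPKM times length was whole, within 0.05, for 84.7 to 90.1% of values under 400 reads, against 9.27 to 10.0% at other totals. The number of genes tested was the one that made the most ranks from p over adjusted p whole. The files hold RPKM, so limma 3.58.1 in R 4.3.3 was used, on log2(RPKM + 1) with a variance trend. The fit covered the 28 genes with 9 values, with Benjamini-Hochberg adjustment and no filter on low values. It was tested on simulated data, where most genes were unchanged and the others had larger folds than Slc30a1 between the treated groups. That does not give its error rate on the 28 selected genes. Other comparisons are ratios of mean RPKM without a test. Python 3.11.15 and scipy 1.17.1 were used elsewhere.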

Additional observations from a re-analysis of the deposited data

How the results depend on the processing

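Of 164 alternative values, 141 counted as unchanged, none changed the sign of a value larger than its SD, 11 moved and 12 lost the call. Unchanged meant within 1 SD of the main value or on the same side of the threshold. For listed genes it meant an equal or similar count, such as 2 for 3 in metal handling after P-Por-Os+US against control. Leaving out 1 of 3 libraries shifts a group mean by less than the SD between libraries. A count of 0 cannot rise under a stricter fold. Most of the 141 were fixed in advance in this way, so that number does not measure stability. The second minus first step of Mt1, smaller than its SE, turned from -0.11 to 0.09 with the authors' scaling and ran from -0.27 to 0.01 over the fits without 1 library. All 12 lost calls concern Slc30a1 with ultrasound against P-Por-Os alone, where the main difference of 0.17 had a limma adjusted p of 0.0485. With pseudocounts of 0.1 and 0.5 it was 0.27 and 0.21 (limma adjusted p = 0.129 and 0.0732). At 0.17 the limma adjusted p was 0.0587 for the 6 libraries alone, 0.0615 without the variance trend and 0.0761 without the antisense model and RP23-98C9.5. Leaving out each library gave 0.14 to 0.19 with limma adjusted p from 0.0392 to 0.190, under 0.05 in 2 of 9 fits, those without control replicate 3 or P-Por-Os+US replicate 3. A minimum mean of 0.5 RPKM and the authors' scaling kept the call (limma adjusted p = 0.0386 and 0.0148). After the group mean of each gene was subtracted on log2(RPKM + 1), same-numbered libraries of different groups correlated between -0.07 and 0.52. Among libraries of the other groups, 4 of 9 were most like one of their own number. These values rest on 28 selected genes and cannot settle whether the numbers pair the libraries. With a replicate block the difference was 0.17 (limma adjusted p = 0.0307).

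For Slc30a1 the log2 fold from control of 1.89 after P-Por-Os+US became 0.81 and 1.65 with pseudocounts of 1 and 0.1, that of 1.59 after P-Por-Os became 0.64 and 1.38, the step between treatments became 0.17 with a pseudocount of 1, and its second minus first step -0.48. A pseudocount lowers folds of low genes by construction. Per kb of the main transcripts the Mt2 to Mt1 ratios of 1.93, 3.08 and 7.02 became 0.981, 1.56 and 3.56, by the lengths alone. With a log2 fold of at least 2, listed genes of metal handling became 0 after P-Por-Os, 2 after P-Por-Os+US and 1 for ultrasound added to P-Por-Os. That length scale, the authors' scaling for Slc30a1 in limma and the fit without overlapping models were chosen after seeing the data. Counting error is largest for Slc30a1 in control, at 66 to 80 reads per library, while the spread between control libraries is largest for Mt2.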
